A study of Mus musculus with 12 samples.

Results

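The AP-1 genes described here are the 7 mouse genes of the Fos and Jun families: Jun, Junb and Jund, and Fos, Fosb, Fosl1 and Fosl2. They were chosen by symbol, with earlier results of these data known. All 7 are listed in each of the 3 deposited tables, which together hold 12003 named genes, 11095 of them in every table. RNA sequencing measured their transcripts in cultures of Ocy454, a mouse cell line used as a model of the osteocyte, the cell type buried in bone. The 12 libraries fall into 4 groups of 3. Wild-type (WT) cells received vehicle, parathyroid hormone (PTH) or PF431396, an inhibitor of focal adhesion kinase and its relative PYK2. The fourth group carries a PDE8A knockout (KO), in which the gene Pde8a for a cAMP-degrading phosphodiesterase was targeted. The value columns name DMSO for the vehicle and KO libraries and leave unsaid whether it was also present with PTH or PF431396. Not given in the sources used here are doses, treatment times, how the knockout was made and whether it is 1 clone.

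AP-1 is a dimer of basic leucine zipper proteins that binds DNA at the motif TGACTCA. Jun proteins pair with each other or with Fos proteins, whereas Fos proteins need a Jun partner, so the mixture of members present sets which dimers can form. Fos, Fosb, Jun and Junb are classic early response genes, Jund is expressed broadly at steady levels, and Fosl1 and Fosl2 lack the strong activation domain of Fos. In bone, Fos is needed for osteoclast formation, extra Fosl1 or a short form of Fosb thickens bone in mice, and PTH is known to induce Fos in osteoblasts through cAMP.

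The depth ran from 27715795 to 35752975 estimated counts per library, and values below are normalised estimated counts. Changes are log2 fold changes on the scale of log2 of the value plus 1, with their SE and a limma p-value adjusted over all genes of the table. A gene was called when the adjusted p was below 0.05 and the change was at least 1 in size, the thresholds the study gives. The values of PF431396 libraries 1 and 3 were identical in all 11490 lines of their table, and they entered as 1 library, which leaves that group with n = 2. Vehicle library 1 stood apart: the SD over all genes of its log2 difference from the mean of libraries 2 and 3 was 0.72 in the PTH table, against 0.27 between libraries 2 and 3. Of the markers checked, all 7 for osteoblasts and 5 of 8 for osteocytes were listed. Sost, Mepe and Fgf23, which define mature osteocytes, were not in the tables. None of 4 adipocyte and 3 endothelial markers was listed, and of 5 macrophage and osteoclast and 3 muscle markers only Ctsk and Des were. The transcript targeted in the KO was at 3100, 2579 and 2890 in vehicle and at 2074, 2438 and 2037 in the KO. These Pde8a values do not overlap, and the change (-0.39 ± 0.14, adjusted p = 0.0681) did not pass. Where the deletion lies was not stated, so the level of the whole transcript is a weak check of the label.

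In vehicle cells the Jun members made up most of the family. Levels can be compared between genes only per kilobase of exon, and in the PTH table the order was led by Jund at 2460 ± 151 per kilobase, then Junb at 893 ± 105 and Jun at 495 ± 203 (mean ± SD, n = 3). Fosl2 followed at 206 ± 21.7, Fos at 194 ± 122, Fosl1 at 115 ± 47.1 and Fosb at 44.9 ± 31.4 per kilobase. Jund, Junb and Jun occupied separate ranges, while the ranges of Fosl2 and Fos overlapped, as did those of Fos and Fosl1. Fosb was the lowest on average, but its highest library (81.2 per kilobase) lay just under the lowest of Fosl1 (82.4). The same order of means was obtained with the length of the longest transcript in place of all exon bases. With that length the ranges of Fosb (43.3 to 134) and Fosl1 (89.9 to 184) overlapped.

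The spread between vehicle libraries was not even over the members. Fos was at 787, 293 and 286 in vehicle libraries 1, 2 and 3, Fosb at 507, 164 and 171, Jun at 2322, 1135 and 1281 and Fosl1 at 344, 191 and 167. For these 4 genes library 1 was the highest, by log2 differences of 1.44 for Fos, 1.59 for Fosb, 0.94 for Jun and 0.94 for Fosl1 from the mean of the other vehicle libraries. Library 1 was also above the others for Junb, by 0.26, and below them for Jund (-0.12) and Fosl2 (-0.25). The errors of Fos, Fosb, Jun and Fosl1 below therefore carry the gap between library 1 and the rest, and their changes without it are also given.

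**Figure D1:**
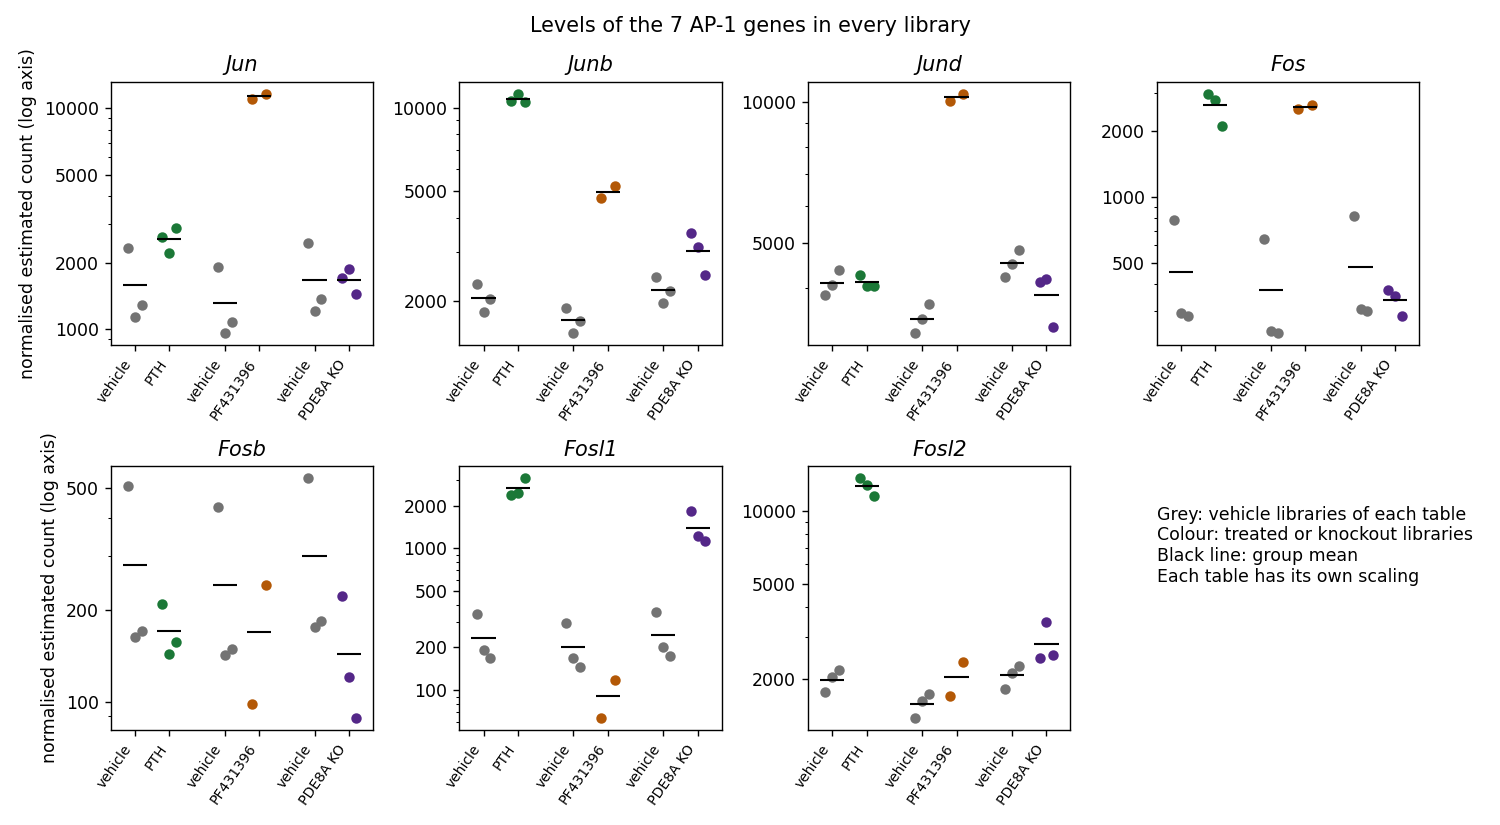
Normalised estimated count (log axis) of each AP-1 gene in every library, with vehicle libraries in grey, treated or knockout libraries in colour and group means as black lines, for the 3 tables with their own scaling. Fos, Fosb, Jun and Fosl1 show 1 vehicle library above the other vehicle libraries; Junb and Fosl2 are highest under PTH, Jun and Jund under PF431396, and Fosl1 is high under PTH and in the KO.

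The receptor for PTH on bone cells couples to cAMP production, and the first comparison asked which of the 7 genes differ between PTH and vehicle. Junb, Fos, Fosl1 and Fosl2 rose under PTH, and limma called 0 members lower. These are 4 of 7 members called higher, where 2.86% of the 11775 genes tested were called higher and 1.01% lower. At an unadjusted p under 0.05 there were 5 higher, with Jun added, and 0 lower. The share of all genes at this looser threshold was not counted, here or below. It is larger than the share called, so these counts have no background beside them. Jun did not pass with all libraries, and Jund and Fosb did not pass either.

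Junb, a Jun partner that activates transcription less strongly than Jun in many settings, was at 2307, 1827 and 2029 in vehicle and at 10542, 11230 and 10488 under PTH. Every PTH library lay far above every vehicle library, and Junb rose 5.25-fold (2.39 ± 0.12, adjusted p = 0.000152, n = 3 in each group). Jund, the broadly expressed member, was at 3871, 4068 and 4372 in vehicle and at 4271, 4046 and 4038 under PTH. Its groups overlapped almost fully (0.0063 ± 0.10, adjusted p = 0.977), with a 95% interval of the difference from -0.22 to 0.24. Jun, the founding member of the family, was at 2623, 2211 and 2867 under PTH, so that 1 PTH library lay below vehicle library 1 and all were above libraries 2 and 3. The change of Jun was 0.77 ± 0.27 (adjusted p = 0.143). Without vehicle library 1 it was 1.08 with an adjusted p of 0.000241, and Jun was then called higher, which makes 5 members.

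Among the Fos members, Fosl1, which encodes FRA-1, was at 2358, 2453 and 3123 under PTH. All PTH libraries were above the highest vehicle value of 344, and Fosl1 rose 11.7-fold (3.55 ± 0.28, adjusted p = 0.000817), the change ranked 18 by size among the genes tested. Without vehicle library 1 it was 3.87. Fosl2, which encodes FRA-2, was at 1766, 2037 and 2179 in vehicle and at 13732, 12857 and 11577 under PTH. The groups were far apart, and Fosl2 rose 6.39-fold (2.67 ± 0.12, adjusted p = 0.000152). Fos itself was at 2976, 2794 and 2122 under PTH, all above the 787 of vehicle library 1. It rose 6.43-fold (2.69 ± 0.39, adjusted p = 0.00935). The call of Fos ended when any 1 PTH library was left out, with adjusted p = 0.0605 without library 1, 0.0607 without library 2 and 0.0514 without library 3, at changes from 2.59 to 2.83. Without vehicle library 1 the change of Fos was 3.17. Fosb, whose short form lacks the activation domain, was at 210, 144 and 157 under PTH. Library 1 lay within the vehicle range and the others just below it. Its change was -0.52 ± 0.45 (adjusted p = 0.522), and 0.0078 without vehicle library 1.

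**Figure D2:**
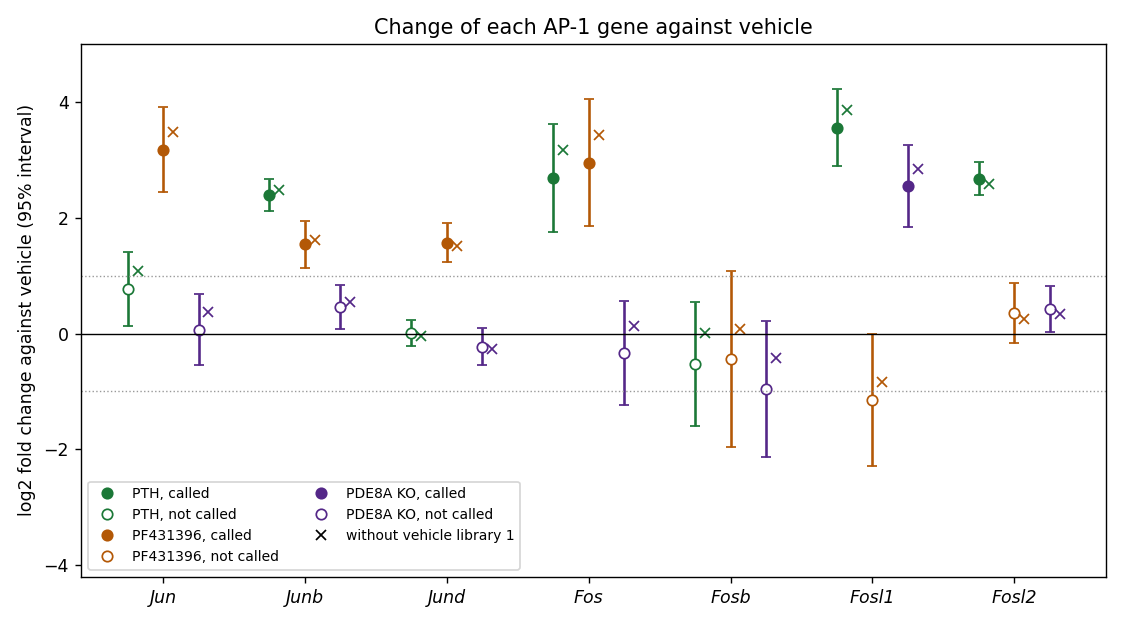
Change of each AP-1 gene against vehicle on the log2 scale (circles, filled where called, with 95% intervals from limma), beside the change without vehicle library 1 (crosses). Under PTH the filled points are Junb, Fos, Fosl1 and Fosl2 at 2.39 to 3.55, under PF431396 they are Jun, Junb, Jund and Fos at 1.54 to 3.18, and in the KO Fosl1 alone at 2.54; dotted lines mark the fold threshold of 1 in either direction.

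Fos and Junb were called higher under both PTH and PF431396, and a RefSeq promoter is given for each, so their upstream sequences are shown with those of Jun and Fosb, which were not called under PTH. Each sequence is the 250 bases before the RefSeq start, 5′ to 3′ on the gene's strand in GRCm38.p6, and capitals mark TGACG, the core of the cAMP response element.
Fos, chr12:85473640-85473889, plus strand: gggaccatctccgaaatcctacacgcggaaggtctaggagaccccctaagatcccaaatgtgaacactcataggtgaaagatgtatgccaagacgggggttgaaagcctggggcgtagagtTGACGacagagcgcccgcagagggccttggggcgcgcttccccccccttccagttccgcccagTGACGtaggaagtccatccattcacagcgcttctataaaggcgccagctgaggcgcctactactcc
Junb, chr8:84978749-84978998, minus strand: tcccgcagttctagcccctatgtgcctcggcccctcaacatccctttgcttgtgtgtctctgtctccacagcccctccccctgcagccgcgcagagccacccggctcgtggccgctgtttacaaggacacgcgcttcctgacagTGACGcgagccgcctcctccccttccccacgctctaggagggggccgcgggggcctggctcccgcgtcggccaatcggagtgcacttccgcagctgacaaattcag
Fosb, chr7:19310046-19310295, minus strand: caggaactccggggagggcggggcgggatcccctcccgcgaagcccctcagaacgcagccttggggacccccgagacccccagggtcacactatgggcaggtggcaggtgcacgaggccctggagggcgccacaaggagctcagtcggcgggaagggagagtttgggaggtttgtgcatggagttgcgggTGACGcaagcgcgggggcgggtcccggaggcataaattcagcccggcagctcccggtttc
Jun, chr4:95052223-95052472, minus strand: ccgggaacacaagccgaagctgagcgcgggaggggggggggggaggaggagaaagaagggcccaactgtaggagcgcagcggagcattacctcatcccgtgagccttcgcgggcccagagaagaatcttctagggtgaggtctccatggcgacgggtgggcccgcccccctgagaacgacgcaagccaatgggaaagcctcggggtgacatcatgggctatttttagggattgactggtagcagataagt

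A promoter was found for 6 of the 7 members, and Fosl1 had no entry. TGACG, searched on both strands, stands in the upstream windows of 3 of these 6 genes, against 17.8% of all 32851 windows of that length. Its first base lies at -129 and at -66 from the start in Fos, at -106 in Junb and at -60 in Fosb, all on the gene's strand. Fosb, which holds it, was not called in any comparison. Among the genes without it, Fosl2, whose window is not shown, was called higher under PTH, and Jun and Jund were called under PF431396. Whether TGACG in these windows goes with the calls of any comparison was not tested. The full palindrome TGACGTCA (1.55% of windows), the AP-1 motif TGACTCA (4.46%) and the CArG box bound by serum response factor (1.47%) were in none of the 6 windows. GGGCGG, the GC box, was found in 4, those of Jun, Fosl2, Fosb and Fos, against 32.7% of windows. The variant TGACATCA, known from the Jun promoter as an element bound by Jun with ATF2, was looked for after the sequences were read. It stands at -45 in Jun, in 1 of the 6 windows and in 2.93% of all windows. The RefSeq start lies 1210 bases upstream of the GENCODE start for Jund and 671 bases downstream of it for Fosl2, so those windows depend on the annotation. Letters alone do not show binding, and a missing match speaks only of these windows.

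The second comparison asked which members differ between PF431396 and vehicle. Here the Jun members moved together: Jun, Junb and Jund rose, with Fos, while Fosb, Fosl1 and Fosl2 did not pass. These are 4 of 7 members called higher and 0 lower, where 10.9% of the 11484 genes tested were called higher and 15.2% lower. At an unadjusted p under 0.05 there were 4 higher and 1 lower, Fosl1. The PF431396 libraries also had 11.8% to 13.0% of their counts in the 13 protein-coding genes of the mitochondrion, against 3.89% to 5.19% in vehicle. The part of this difference in the changes of the AP-1 genes was not tested. When every library was scaled to the same total, the median change of all genes in this table moved to -0.55, and each change below moved down by about that amount, so that rises became smaller and negative changes larger in size. Markers of other cells were measured in the same libraries. Ctsk, an osteoclast protease gene, was called higher, at 457 to 687 in vehicle and 2689 to 2942 under PF431396. The summed osteoblast markers were at 40792 to 184029 in vehicle and at 224773 to 250211 under PF431396, with 1 of 7 called higher and 0 lower. Most of the PF431396 sum was Col1a1, at 150320 to 169080. Of 5 osteocyte markers 1 was called lower and 0 higher, and the muscle marker Des was not called. The part of these differences in the changes of the AP-1 genes was not tested.

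Jun was at 1915, 954 and 1078 in vehicle and at 11034 and 11661 under PF431396. Both PF431396 libraries were far above all vehicle libraries, and Jun rose 9.04-fold (3.18 ± 0.31, adjusted p = 0.00262; 2.64 after scaling to the same total). Without vehicle library 1 its change was 3.48. Jund, which had not differed under PTH, was at 3206, 3437 and 3696 in vehicle and at 10032 and 10409 under PF431396. The groups did not overlap, and Jund rose 2.97-fold (1.57 ± 0.14, adjusted p = 0.00247; 1.04 after scaling to the same total). Junb was at 1889, 1526 and 1697 in vehicle and at 4707 and 5205 under PF431396. It rose 2.91-fold (1.54 ± 0.17, adjusted p = 0.00287; 1.01 after scaling to the same total), so that with that scaling Junb and Jund lie just past the fold threshold.

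Fos was at 640, 243 and 237 in vehicle and at 2527 and 2650 under PF431396. Both treated libraries were above vehicle library 1, the highest of the vehicle values, and Fos rose 7.75-fold (2.95 ± 0.45, adjusted p = 0.00571). Without PF431396 library 2 the change was 2.92 and the call ended (adjusted p = 0.0531), and without vehicle library 1 the change was 3.42. Fosl1 was at 295, 168 and 146 in vehicle and at 64.0 and 119 under PF431396. The groups did not overlap, but the change (-1.14 ± 0.47, adjusted p = 0.101) did not pass. It passed as lower after scaling to the same total (-1.67, adjusted p = 0.0296) and when each deposited column was counted as a library (-1.29, adjusted p = 0.0316). In the authors' deposited table the log2 fold change of Fosl1 is -1.305 with an adjusted p of 0.00990. The authors' changes match, within 0.00599, the means over every deposited column. The repeated library is therefore counted there too, as in the run just named, and neither value is separate backing. Without vehicle library 1 the change was -0.84 (adjusted p = 0.162).

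Fosl2 was at 1383, 1628 and 1743 in vehicle and at 1709 and 2369 under PF431396. One treated library lay within the vehicle range, and the change (0.35 ± 0.21, adjusted p = 0.234) turned to -0.18 after scaling to the same total. Fosb, the lowest member, was at 434, 143 and 149 in vehicle and at 99.0 and 241 under PF431396. The treated libraries lay on either side of vehicle libraries 2 and 3, and the change was -0.44 ± 0.63 (adjusted p = 0.605). Its 95% interval, from -1.97 to 1.08, reached past the fold threshold on both sides, and without vehicle library 1 the change was 0.079 (adjusted p = 0.905).

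The third comparison, of the PDE8A KO with vehicle, gave 1 member called higher, Fosl1, and 0 lower, where 6.32% of the 11592 genes tested were called higher and 5.13% lower. At an unadjusted p under 0.05, 3 were higher, with Junb and Fosl2 added, and 0 lower. More of all genes pass that threshold than the shares just given, so this count is not read as a shift of the family. Fosl1 was at 355, 200 and 175 in vehicle and at 1823, 1218 and 1121 in the KO. All KO libraries were above all vehicle libraries, and Fosl1 rose 5.83-fold (2.54 ± 0.31, adjusted p = 0.00137, n = 3 in each group). The change was 2.85 without vehicle library 1. Markers of the bone lineage moved in the same comparison. Of 7 osteoblast markers 5 were called lower and 0 higher in the KO, and of 5 listed osteocyte markers 3 were lower and 1 higher, while Ctsk was called higher. Des was also called higher, at 40.2 to 92.0 in vehicle and 126 to 148 in the KO. The summed osteoblast markers were at 51833 to 231587 in vehicle and at 74122 to 94528 in the KO. Most of the KO sum was Col1a1, at 70469 to 89594, so the sum says little of the other markers. In bulk samples fewer cells of a type and less RNA per cell cannot be told apart, and the part of these differences in the change of Fosl1 was not tested.

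The other members differed less. Junb was at 2442, 1958 and 2177 in vehicle and at 3514, 3123 and 2487 in the KO. The KO values were all higher, the lowest by little, and the change of 0.46 ± 0.17 did not pass (adjusted p = 0.0716). Fosl2 was at 1823, 2130 and 2280 in vehicle and at 2444, 3443 and 2530 in the KO. Its groups did not overlap either, with a change of 0.42 ± 0.17 (adjusted p = 0.102). Jund was at 4225, 4498 and 4835 in vehicle and at 4133, 4192 and 3302 in the KO. The KO values were all below the vehicle values, by little for libraries 1 and 2 (-0.23 ± 0.14, adjusted p = 0.251). The 95% intervals were 0.08 to 0.85 for Junb, 0.02 to 0.82 for Fosl2 and -0.55 to 0.09 for Jund, all short of the fold threshold.

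Jun was at 2440, 1208 and 1364 in vehicle and at 1703, 1877 and 1443 in the KO, where all KO values lay within the vehicle range (0.07 ± 0.26, adjusted p = 0.871). Without vehicle library 1 the change of Jun was 0.37 with an adjusted p of 0.0493, still under the fold threshold. Fos was at 817, 308 and 301 in vehicle and at 376, 352 and 284 in the KO. Its groups overlapped, and the change of -0.34 ± 0.39 (adjusted p = 0.538) was 0.14 without vehicle library 1. Fosb was at 538, 176 and 184 in vehicle and at 222, 121 and 89.1 in the KO. KO libraries 2 and 3 were below all vehicle libraries and KO library 1 was within the vehicle range (-0.95 ± 0.51, adjusted p = 0.195), and the change was -0.43 without vehicle library 1.

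The 3 comparisons share the vehicle libraries, so their changes are not independent and are only set side by side. Fosl1 was at 3.55 under PTH, -1.14 under PF431396 and 2.54 in the KO. Fosl2 was at 2.67, 0.35 and 0.42 in the same order, and Junb at 2.39, 1.54 and 0.46. Jun was at 0.77, 3.18 and 0.07, Jund at 0.0063, 1.57 and -0.23, and Fos at 2.69, 2.95 and -0.34. Fosb was at -0.52, -0.44 and -0.95 and passed in none.

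Fosl1 shares bases with another gene. It lies on chromosome 19, plus strand, between 5447547 and 5455946 in GRCm38, and 1163 of its exon bases (57.2%) also lie in exons of Ccdc85b on the minus strand. Whether the libraries kept strand was not stated, so reads of these bases cannot be told apart. Ccdc85b changed by 1.00 ± 0.23 under PTH (adjusted p = 0.0455), by -0.94 ± 0.33 under PF431396 (adjusted p = 0.0636) and by 1.05 ± 0.22 in the KO (adjusted p = 0.0129), the last alone passing both thresholds. These have the sign of Fosl1 and are smaller than its changes. In vehicle libraries 1, 2 and 3 of the PTH table Ccdc85b was at 598, 1017 and 967 and Fosl1 at 344, 191 and 167. The part of Ccdc85b reads in the changes of Fosl1 was not tested. Junb shares 173 exon bases (7.52%) with Prdx2, which was called higher under PF431396 (1.14 ± 0.20, adjusted p = 0.00801). Jund shares 877 (52.6%) with the unlisted Gm11175, and Jun 232 (7.28%) with the unlisted Junos.

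The other members lie apart in the genome. In GRCm38, Jun (ENSMUSG00000052684) has 1 exon on chromosome 4, minus strand, at 95049034 to 95052222. Junb (ENSMUSG00000052837) and Jund (ENSMUSG00000071076) are both on chromosome 8, from 84974484 to 84978718 on the minus strand and from 70698949 to 70700616 on the plus strand. Fos (ENSMUSG00000021250) lies on chromosome 12, plus strand, at 85473890 to 85477273, and Fosb (ENSMUSG00000003545) on chromosome 7, minus strand, at 19302696 to 19310051. Fosl2 (ENSMUSG00000029135) spans chromosome 5 from 32135801 to 32157842 on the plus strand, and the identifier of Fosl1 is ENSMUSG00000024912. The longest transcripts of Fos, Fosb, Fosl1 and Fosl2 have 4 exons each.

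Because a ratio within a library does not depend on the scaling between libraries, the make-up of the family was also described as shares of its summed level per kilobase. In the PTH table the Fos members took 15.9%, 11.3% and 10.5% of the sum in the vehicle libraries and 32.7%, 31.9% and 31.7% under PTH. The PTH libraries were close to each other and all above vehicle. Under PF431396 the Fos members took 10.1% and 10.8%, where the vehicle libraries of that table had 15.8%, 11.1% and 10.3%. Those groups overlapped. In the KO the Fos members took 22.8%, 20.1% and 21.3%, against 15.4%, 10.8% and 10.1% in vehicle, and the groups did not overlap.

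The members behind these shares differed by condition. Jund went from the leading share of 56.2% ± 6.96 in vehicle to 21.1% ± 0.493 under PTH at a nearly equal level, as the summed level per kilobase of the family went from 4408 to 11708. Junb took the first place at 39.9% ± 1.48, from 20.2% ± 0.589. Fosl1 went from 2.58% ± 0.838 to 11.1% ± 1.91 under PTH, and Fosl2 from 4.72% ± 0.808 to 11.2% ± 0.811. Under PF431396 the family sum went from 3680 to 13223 per kilobase, with Jun at 26.9% ± 0.112 against 11.0% ± 3.53 in vehicle and Fosl1 at 0.337% ± 0.129 against 2.68% ± 0.873. In the KO the sum was 5309 against 4771 per kilobase, and Fosl1 went from 2.48% ± 0.813 to 12.8% ± 2.28. These shares depend on the exon lengths and are given with no test.

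**Figure D3:**
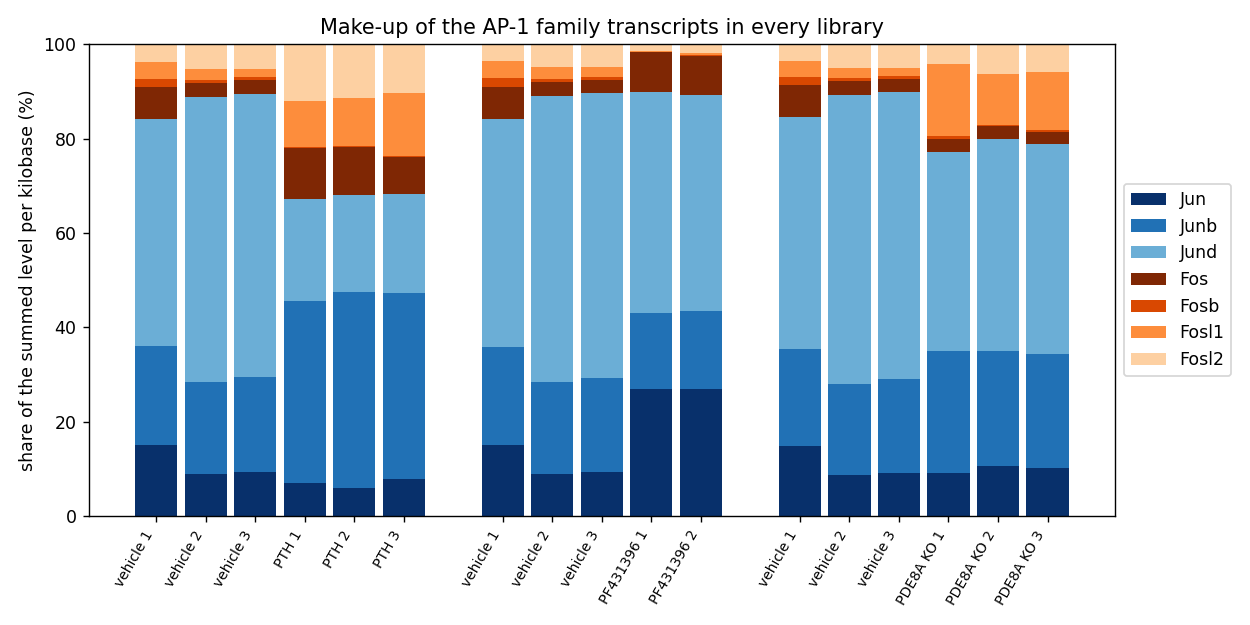
Share of each AP-1 gene in the summed level per kilobase of the family (percent, bars adding to 100), for every distinct library of the 3 tables, with Jun members in blue and Fos members in red to orange. The Fos members take 31.7% to 32.7% in the PTH libraries, 20.1% to 22.8% in the KO libraries and 10.1% to 10.8% under PF431396; in vehicle they take 10.1% to 15.9%.

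By level per kilobase, the order under PTH was Junb at 4673 ± 180, Jund at 2469 ± 79.3, Fosl2 at 1314 ± 112, Fosl1 at 1301 ± 205, Fos at 1119 ± 191, Jun at 805 ± 104 and Fosb at 27.3 ± 5.56. Junb and Jund were clear of the rest, while Fosl2, Fosl1 and Fos did not differ beyond their spread. That depended on the length used. Per kilobase of the longest transcript Fosl2 lay at 1771 to 2101, above Fosl1 at 1265 to 1675 and Fos at 1007 to 1412. Under PF431396 Jund led at 6127 ± 160, followed by Jun at 3558 ± 139, Junb at 2154 ± 153, Fos at 1101 ± 36.8, Fosl2 at 211 ± 48.2, Fosl1 at 44.9 ± 19.0 and Fosb at 27.2 ± 16.0. The last 2 of these overlapped. In the KO, Jund at 2324 ± 298 and Junb at 1322 ± 225 led as in vehicle, and Fosl1 at 682 ± 186.9 ranked 3 by mean, ahead of Jun at 525 ± 68.5.

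The known partners and regulators of AP-1 were described from lists of related genes. These lists, and those of targets and early response genes below, were chosen with earlier results of these data known. A count above the share of all genes may come in part from that choice, and no set test was run. Over all genes 2.86% were called higher and 1.01% lower under PTH. The shares were 10.9% and 15.2% under PF431396 and 6.32% and 5.13% in the KO. For the kinases, promoter factors and turnover genes, the counts under PF431396 and in the KO, with all libraries and as deposited, are near or below these shares. Of 14 listed dimer partners and related leucine zipper factors, 2 rose under PTH and 0 fell, with a median change of 0.11 against -0.0034 over all genes tested. With any 1 PTH library left out, 1 of them was called. Among them Bach2, a repressor that pairs with small Maf proteins, rose by 1.39 ± 0.28 (adjusted p = 0.0294). Under PF431396, 0 of 13 rose and 5 fell by limma, with a median of -0.18 against -0.016 over all genes, and at an unadjusted p under 0.05 0 were higher and 6 lower. Without PF431396 library 1, 3 were called lower. Atf4, the stress response factor, fell from 14045 ± 3071 to 2512 ± 275 (-2.47 ± 0.21, adjusted p = 0.00247). Jdp2, a repressor that pairs with Jun proteins, fell by 1.42 on the log2 scale (adjusted p = 0.00776), and the oxidative stress factor Nfe2l2 (-1.35 ± 0.24) and its competitor Bach1 (-1.26 ± 0.18) fell too. In the KO, limma called 0 of 14 in either direction, with a median of 0.16 against -0.0022 over all genes, and at an unadjusted p under 0.05 4 were higher and 2 lower. Leaving out 1 library gave 0 to 2 calls. Bach1, at -0.94 ± 0.15, had an adjusted p of 0.00441 but was under the fold threshold.

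Among 18 listed kinases upstream of AP-1, which include the ERK, JNK and p38 kinases, limma called 0 under PTH, with a median of 0.02, and at an unadjusted p under 0.05 3 were higher and 2 lower. Under PF431396 1 rose and 1 fell, with a median of -0.11: Mapk3, which encodes ERK1, by 1.76 ± 0.36 (adjusted p = 0.0132) and Map2k4, a JNK activator, by -1.26 ± 0.25 (adjusted p = 0.0119). The call of Mapk3 ended without either PF431396 library, and that of Map2k4 ended without library 1. With equal totals 1 kinase was higher and 6 lower. In the KO Mapk3 alone rose (1.11 ± 0.29, adjusted p = 0.0267), and the median was 0.26. That call ended without vehicle library 1 and without any 1 KO library. Of the factors acting on Fos and Jun promoters, Stat3 and Crem rose under PTH, 2 of 17, with a median of -0.06. Stat3, which mediates cytokine signals, changed by 2.18 ± 0.15 (adjusted p = 0.000493) and Crem, a cAMP-responsive factor with repressor forms, by 1.47 ± 0.31 (adjusted p = 0.0358). Leaving out 1 vehicle library, numbered 2 or 3, left 1 of the 17 higher, as did leaving out the first or the third under PTH. Under PF431396 the ternary complex factors Elk1 (1.16 ± 0.15) and Elk3 (1.22 ± 0.29) rose and Sp1, which binds GC boxes, fell (-1.53 ± 0.16), 3 of 16, at a median of -0.20. With equal totals 0 of the 16 were higher and 6 lower by limma, at a median of -0.73, and without vehicle library 1 or either PF431396 library 1 was higher. Elk3 also rose in the KO (1.01 ± 0.21), 1 of 17, at a median of -0.44. Its change lay at the fold threshold, and the call ended with a pseudocount of 10, without vehicle library 1 and without any 1 KO library. Of the genes for AP-1 turnover and repression, the phosphatase gene Dusp1 rose under PTH (1.56 ± 0.22, adjusted p = 0.00832) and Dusp4 in the KO (1.35 ± 0.25, adjusted p = 0.00822), each 1 of 12, at medians of 0.14 and -0.20. The call of Dusp1 ended when any 1 PTH library was left out. Under PF431396 limma called 0 of 11, at a median of -0.58, and at an unadjusted p under 0.05 0 were higher and 5 lower. With equal totals 6 of these 11 were called lower, at a median of -1.11. Over all 11484 genes, equal totals gave 344 called higher and 3470 lower, at a median of -0.55. The equal-total counts of these lists are to be read beside those numbers.

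Genes known as AP-1 targets in other settings were described next, from a list also chosen with earlier results of these data known. Of 24 listed, 9 rose under PTH and 1 fell, where 2.86% of all genes were called higher and 1.01% lower. The median change was 1.00. Plau, the urokinase gene, rose from 362 ± 37.0 to 1756 ± 175 (2.27 ± 0.14, adjusted p = 0.000343), and its receptor gene Plaur by 2.51 ± 0.17 (adjusted p = 0.000445). The growth factor gene Vegfa rose by 1.46 ± 0.09 (adjusted p = 0.000343), and the cell cycle gene Ccnd1 fell by 1.42 on the log2 scale (adjusted p = 0.00128). The collagenase gene Mmp13, a known PTH and AP-1 target in osteoblasts, rose from 823 ± 457 to 9185 ± 278 (3.67 ± 0.44, adjusted p = 0.00409). With 1 PTH library left out, the count that rose was 5 or 6.

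Under PF431396, 8 of 24 target genes rose and 3 fell, at a median of 0.75. Over all genes 10.9% were called higher and 15.2% lower there, so the count of 3 lower does not exceed the share of all genes. Mmp13 rose from 688 ± 386 to 5040 ± 319 (3.07 ± 0.53, adjusted p = 0.00777), the fibronectin gene Fn1 by 1.17 ± 0.13 (adjusted p = 0.00301) and the osteopontin gene Spp1 by 2.29 ± 0.33 (adjusted p = 0.00490). Cdkn1a, a cell cycle inhibitor gene, fell (-2.11 ± 0.21, adjusted p = 0.00262), as did Hmox1, the heme oxygenase gene (-2.68 ± 0.37, adjusted p = 0.00465). After scaling to the same total the counts were 3 higher and 4 lower, where 344 of all 11484 genes were called higher and 3470 lower. Fewer target genes rose when either PF431396 library was left out. In the KO 2 of 24 rose and 4 fell, at a median of -0.18, and 6 were lower without vehicle library 1. Over all genes 6.32% were called higher and 5.13% lower in the KO, and the count of 2 higher is near that share. The metallothionein gene Mt2 rose by 2.34 ± 0.29 (adjusted p = 0.00157). The cytokine gene Lif (-2.89 ± 0.50) and Cdkn1a (-1.26 ± 0.23) fell, and Ibsp, the bone sialoprotein gene and an osteoblast marker, fell from 22178 ± 13786 to 216 ± 79.9 (-6.42 ± 0.59, adjusted p = 0.000513). Mmp13 was at -1.05 ± 0.47 in the KO and did not pass (adjusted p = 0.128).

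**Figure D4:**
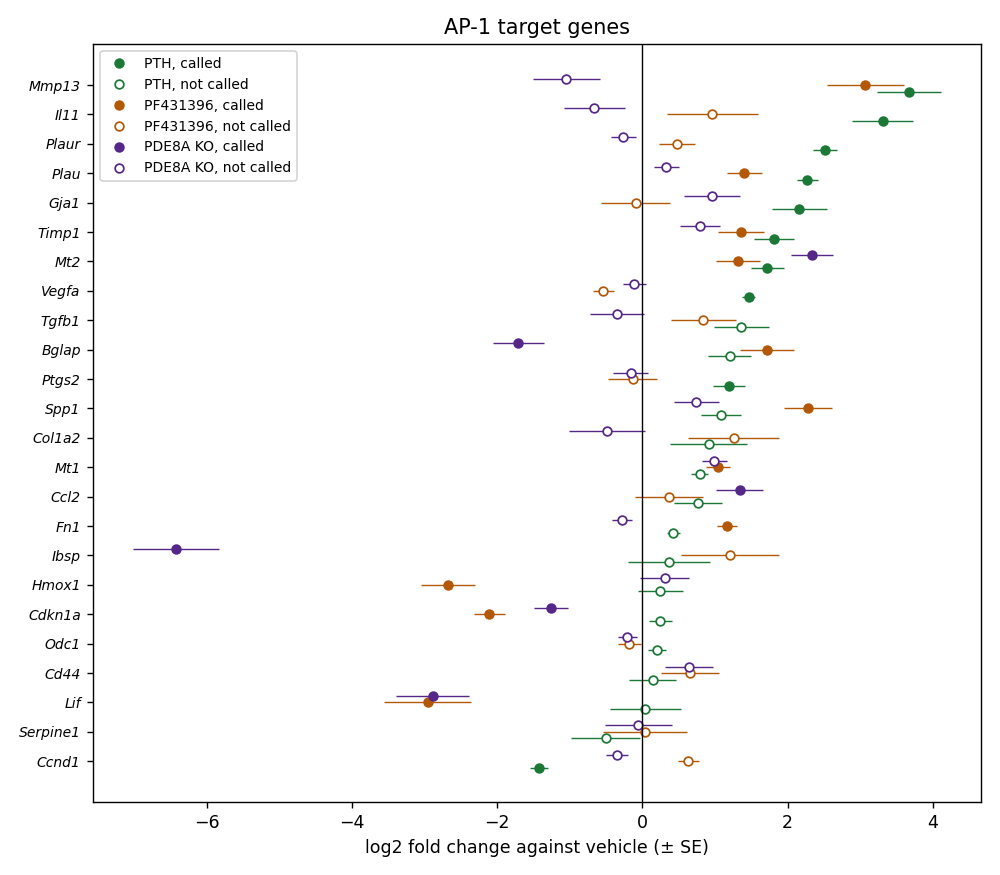
Change against vehicle on the log2 scale with its SE for the 24 listed AP-1 target genes, filled where called, ordered by the change under PTH. Mmp13 is at 3.67 under PTH, 3.07 under PF431396 and -1.05 in the KO, and Ibsp at -6.42 in the KO is the point farthest from 0.

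Other early response genes, a list chosen in the same way, were set beside the AP-1 members. Under PTH 10 of 24 rose and 2 fell, at a median of 0.58, where 2.86% of all genes were called higher and 1.01% lower. The orphan nuclear receptor genes led: Nr4a2 rose by 4.99 ± 0.30 (adjusted p = 0.000343), Nr4a3 by 4.18 ± 0.17 (adjusted p = 0.000107) and Nr4a1 by 2.66 ± 0.19, and Dusp5, an ERK phosphatase gene, rose by 2.32 ± 0.14. With any 1 PTH library left out, limma called 7 higher and 0 lower. Under PF431396, 2 of 25 rose and 4 fell, at a median of -0.29. These counts are near the shares of all genes called there, 10.9% higher and 15.2% lower. After scaling to the same total 0 rose and 10 fell by limma, where 344 of all 11484 genes were called higher and 3470 lower. Without PF431396 library 1 the counts were 1 higher and 2 lower, without library 2 they were 0 and 1, and without vehicle library 2 they were 0 and 3. Zfp36l1, whose product destabilises mRNA, fell (-2.02 ± 0.28, adjusted p = 0.00468), as did the early response factors Klf10 (-1.85 ± 0.39) and Klf4 (-1.30 ± 0.30) and the kinase gene Sik1 (-1.14 ± 0.27). In the KO 2 rose and 2 fell of 25, at a median of 0.15. These counts too are near the shares of all genes, 6.32% higher and 5.13% lower, and they were 3 and 4 without vehicle library 1 and 2 and 1 without KO library 1. Dusp5 rose by 1.41 ± 0.17 (adjusted p = 0.00120) and Egr3 by 1.45 ± 0.26, while the matricellular protein gene Ccn2 (-2.55 ± 0.15, adjusted p = 0.000105) and Zfp36l1 (-1.18 ± 0.24) fell.

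The genes whose values over the 8 distinct treated or knockout libraries were closest to those of each member were found among 10255 candidates, each library taken as its log2 difference from the vehicle mean. Likeness was the root mean square difference in log2 units. For Junb they were Plau (0.22), Cdk6 (0.33) and Nfkbiz (0.34). For Fos they were Notum (0.68), Mmp13 (0.77) and Plau (0.94), a looser match. Fosl1 was closest to Arrdc3 (0.49), Gas1 (0.56) and Flrt2 (0.78), which were called higher under PTH and in the KO and were not called under PF431396. Fosl2 was closest to Fgf7 (0.31), Osmr (0.32) and Glul (0.33), called under PTH alone. Jun was closest to Gabre (0.45), the mitochondrial mt-Nd6 (0.50) and Col12a1 (0.52), and Jund to Ctxn1 (0.11), Gng11 (0.11) and Ost4 (0.12), all called under PF431396 alone. Fosb, which was not called, was closest to Ercc1 (0.37), Nubpl (0.38) and Gpr19 (0.41). The median over all candidates ran from 1.005 for Jund to 2.804 for Fosl1. These genes were chosen for likeness over the same libraries, so calls shared with a member follow from the choice. All these values share the vehicle libraries and their scaling.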

How the data were processed

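RNA was sequenced from 12 libraries in 4 groups of 3. The submitters' processing notes name FastQC 0.11.5 for read quality, Salmon with GRCm38 for quantification and DESeq2 for the comparisons. Not given in the sources used here: other versions, the annotation release and the strand setting. The deposited signal in each library column is a normalised estimated count, whole counts divided by 1 factor per library within a tolerance of 0.02 counts. The deposited log2 fold changes and adjusted p-values are the authors' own and are quoted only where named. No listed gene had an estimated count under 11 in any library, so genes under the authors' minimum are not in the tables.

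The 3 tables were normalised separately, so tests were made within a table. From 6 to 8 lines per table named no gene, held at most 0.0249% of counts and were left out. Each group was set against vehicle in limma 3.58.1 (R 4.3.3, statmod 1.5.0, trend and robust variance), fitted to log2 of the value plus 1 without covariates, and p-values were adjusted by Benjamini-Hochberg over every gene of a table. Whether the libraries are separate cultures is not stated, so the p-values cover the spread between these libraries, possibly a technical one. Exon lengths and overlaps came from GENCODE and promoters from RefSeq. The script for the test was tested on simulated data. Alternatives were other pseudocounts, a minimum mean level of 100, scaling to equal totals, simpler variance, a replicate block and leaving out each library.

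The members and gene lists were chosen with earlier results of these data known. Named genes are the members, Pde8a, up to 4 called genes with the smallest adjusted p from each list and comparison (1 such gene is not reported here), and the 3 genes most like each member among those with a mean level of at least 100 in every table. Overlapping genes and the markers named were added as checks, and Bach1 in the KO and Mmp13 in the KO were named after their values were seen. Python 3.11.15, with pandas 2.3.3 and numpy 2.4.6, made the tables, and matplotlib 3.10.9 drew the figures.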

Additional observations from a re-analysis of the deposited data

How the results depend on the processing

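The members called higher were the same 4 under PTH, the same 4 under PF431396 and Fosl1 in the KO with pseudocounts of 0.1 and 10, a minimum mean level of 100, simpler variance and the replicate block; with scaling to equal totals Fosl1 was also called lower under PF431396. Leaving out 1 library gave 3 to 5 members called under PTH, 3 or 4 under PF431396 and 1 in the KO. Without the fold threshold 908 genes passed under PTH (456 with it) and 3223 in the KO (1328 with it). Leaving out 1 library gave 219 to 614 genes called under PTH, 1756 to 2917 under PF431396 and 967 to 1405 in the KO; such runs have fewer libraries. With equal totals the calls over all genes were 344 higher and 3470 lower under PF431396, against 1257 and 1748 as deposited, and 293 higher and 175 lower under PTH, against 337 and 119; the median of all genes moved by -0.55 and -0.12.

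Changes that reversed sign were of members that did not pass. With equal totals they were Jund under PTH at -0.11 and Fosl2 under PF431396 at -0.18. With 1 library left out, Jund ran from -0.035 to 0.053 and Fosb from -0.80 to 0.0078 under PTH. Fosb ran from -1.08 to 0.19 under PF431396, and Jun from -0.13 to 0.37 and Fos from -0.58 to 0.14 in the KO. With no length correction the log2 ratio of Fos to Jun members, against vehicle, was 1.44 in place of 1.75 under PTH, -1.01 in place of -0.25 under PF431396 and 0.56 in place of 1.00 in the KO, since Fosb and Fosl2 have long exons. With the longest transcript Junb in vehicle was at 1136 per kilobase in place of 893 and Fosl2 at 305 in place of 206.

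Whether the shared replicate numbers pair the libraries was not settled. Correlations of same-numbered libraries were -0.05 to 0.03 under PTH. In the KO they were 0.06 to 0.10, low values, but each library correlated best with its own number. Under PF431396 they were -0.02 and -0.01. With n = 2 the deviations of those libraries from their mean mirror each other, so that check cannot show pairing or its absence. The replicate block gave 403, 2749 and 1305 genes called under PTH, PF431396 and in the KO, and 4, 4 and 1 members. Count-based tests planned on recovered counts were not run.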
